A study of Mus musculus with 12 samples.

Results

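The genes described here encode matricellular proteins, which sit in the extracellular matrix and signal to cells rather than build fibres, together with related secreted ligands of integrins. The members were listed by symbol, namely Postn, Tnc, Tnn, Tnxb, Sparc, Sparcl1, Fn1, Npnt, Mfge8 and Edil3, and were found through their Ensembl identifiers, giving 10 genes of the 49585 in the count tables. All 10 passed the filter on low counts.

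Integrins are cell surface receptors made of an alpha and a beta chain, and many of them recognise a short Arg-Gly-Asp motif in their ligands. Fibronectin is the classic ligand of this kind, nephronectin is the high-affinity ligand of integrin α8β1, and tenascin-C, tenascin-W and osteopontin can also bind that receptor. In bone, periostin and SPARC are associated with collagen fibre assembly, and in the marrow, matrix and integrin contacts take part in holding haematopoietic stem cells near stromal cells.

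The data were bulk RNA-seq read counts of 4 stromal populations sorted from wild-type C57BL/6 male mice aged 8 to 10 weeks, with 3 libraries of 2000 cells for each population. All 4 were CD45-Ter119-CD31-, a gate meant to leave out blood and endothelial cells. Itga8+ MSCs were Itga8+Alcam+Sca-1-, Itga8- BLCs (bone-lining cells, which the labels call osteoblasts) were Itga8-Alcam+Sca-1-, Sca-1+ MSCs were Alcam-Sca-1+, and these came from femoral, tibial and iliac bone that was flushed of marrow and digested with collagenase. CD51+CD140a+ MSCs came from the flushed marrow itself after a different digestion, so that tissue source, dissociation and population cannot be told apart for them. The labels do not say whether replicates were separate animals, and p-values therefore measure the spread between libraries. In bulk libraries of sorted cells, fewer cells of a type and less RNA per cell cannot be told apart either.

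Totals ranged from 17580677 to 31332475 counts per library, and 3 counts, taken as the detection floor, corresponded to 0.0819 to 0.180 in counts-per-million units (CPM, here scaled by the trimmed mean of M-values, TMM). Libraries of Sca-1+ MSCs correlated at 0.986 to 0.991 with each other (Pearson r of log2(CPM + 4)) and those of CD51+CD140a+ MSCs at 0.983 to 0.990, whereas those of Itga8+ MSCs correlated at 0.835 to 0.962 and those of Itga8- BLCs at 0.908 to 0.960. Markers of other cells also varied. The summed CPM of 5 cartilage markers was 70081, 10692 and 116106 in Itga8+ MSCs and 41943, 72555 and 9917 in Itga8- BLCs, against 524 to 1586 in the other populations, and the sum of 7 myeloid and lymphoid markers lay between 2296 and 11824 in Itga8+ MSCs, between 4333 and 6477 in Itga8- BLCs and between 869.5 and 1712 elsewhere. The sum of 4 erythroid markers was 100.5, 1096 and 87.3 CPM in Itga8+ MSCs and 94.3 to 292 CPM in the other libraries, so that Itga8+ MSC replicate 2 stood apart. All 5 cartilage and all 4 erythroid markers were above the floor in every library.

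Of the sorting genes, Itga8 was 103 ± 85.6 CPM (SD, n = 3; 73.5, 35.1 and 199 CPM) in Itga8+ MSCs, 1.74 ± 2.11 in Itga8- BLCs and 2.28 ± 0.528 in Sca-1+ MSCs. CD51+CD140a+ MSCs, a population not gated on Itga8, had 64.3 ± 16.2 CPM and overlapped Itga8+ MSCs. Itgav, which encodes CD51, was 121 to 195 CPM in CD51+CD140a+ MSCs and overlapped Sca-1+ MSCs, at 126 to 150.2 CPM, and Pdgfra, which encodes CD140a, was 767 ± 93.4 and 874 ± 143 CPM in those populations. Ly6a, which encodes Sca-1, was 635 ± 23.9 CPM in Sca-1+ MSCs and 1.42 to 27.5 CPM on average elsewhere. Alcam messenger RNA was scarce even in the populations gated as Alcam+, at 3.01 ± 1.89 and 4.91 ± 1.00 CPM, and was at or under the floor in every CD51+CD140a+ MSC library. Of the labelled identities, 8 osteoblast markers summed to 7891 to 20709 CPM in Itga8- BLCs and 483 to 1009 CPM in Itga8+ MSCs, with Ifitm5 at or under the floor in the latter. The same 8 genes summed to 7266 to 16371 CPM in CD51+CD140a+ MSCs, most of it Ibsp, and 6 markers of LepR+ stroma summed to 44710 to 61164 CPM there, against 201 to 739 CPM elsewhere.

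The promoters of 4 members, Postn, Tnc, Tnxb and Mfge8, are shown first, a choice that does not rank them above the other members. They are the 250 bases before the most downstream start site listed by RefSeq on GRCm38.p6, read on the strand of the gene, and 7 of the 10 members were in that table. Capitals mark a TATA box spelled TATATAA, an AP-1 motif spelled TGANTCA and GC boxes spelled GGGCGG, searched on both strands.
The Postn promoter lies at chr3:54360857-54361106 (plus strand), that of Tnc at chr4:64046937-64047186 (minus strand), that of Tnxb at chr17:34670285-34670534 (plus strand) and that of Mfge8 at chr7:79149061-79149310 (minus strand).
Postn: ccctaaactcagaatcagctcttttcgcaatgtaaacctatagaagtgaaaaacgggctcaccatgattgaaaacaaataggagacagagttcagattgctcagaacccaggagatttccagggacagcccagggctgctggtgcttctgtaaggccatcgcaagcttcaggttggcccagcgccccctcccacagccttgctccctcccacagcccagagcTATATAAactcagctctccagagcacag
Tnc: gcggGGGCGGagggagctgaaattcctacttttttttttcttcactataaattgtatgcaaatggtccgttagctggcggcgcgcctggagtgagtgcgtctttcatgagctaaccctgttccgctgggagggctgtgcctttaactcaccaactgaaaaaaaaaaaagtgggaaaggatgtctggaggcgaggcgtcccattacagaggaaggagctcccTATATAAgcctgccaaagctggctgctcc
Tnxb: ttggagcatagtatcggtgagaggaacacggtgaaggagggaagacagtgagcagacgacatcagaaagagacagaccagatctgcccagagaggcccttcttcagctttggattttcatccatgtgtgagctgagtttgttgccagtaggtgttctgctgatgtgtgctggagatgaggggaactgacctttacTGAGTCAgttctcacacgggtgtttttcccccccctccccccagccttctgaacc
Mfge8: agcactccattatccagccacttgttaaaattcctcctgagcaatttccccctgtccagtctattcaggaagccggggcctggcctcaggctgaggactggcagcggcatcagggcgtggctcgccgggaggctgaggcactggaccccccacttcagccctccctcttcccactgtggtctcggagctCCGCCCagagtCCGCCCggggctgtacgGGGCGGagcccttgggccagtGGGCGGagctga
TATATAA stood at -28 in Postn and at -29 in Tnc, counted from the start site, and in 3.04% of 32851 windows of the same length. The Tnxb window held TGAGTCA at -55, and TGANTCA was in 6.75% of windows. Mfge8 held 4 GC boxes, at -61, -50, -33 and -12, Tnc held 1 at -246, and 32.7% of windows held at least 1. CANNTG (E-box) was in 66.2% of windows, among them those of Tnc, Tnxb, Sparc, Npnt and Mfge8, and CATTCC (TEAD) in 12.6%, among them that of Tnn. These are matches of letters, and no match says only that the letters are not in the window.

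Genes were called different where the edgeR quasi-likelihood test gave a Benjamini-Hochberg adjusted p (FDR) under 0.1 over all 18648 genes tested and the fold change was above 2. Between Itga8+ MSCs and Itga8- BLCs, 3.82% of all genes were called and 3 of the 10 members, Postn, Sparcl1 and Mfge8, all higher in Itga8+ MSCs. Against Sca-1+ MSCs, 21.7% of all genes and 6 members were called, with Postn, Sparc, Sparcl1, Mfge8 and Edil3 higher in Itga8+ MSCs and Tnxb lower. Against CD51+CD140a+ MSCs, 35.6% of all genes and 8 members were called, with Tnc lower in Itga8+ MSCs and Postn, Tnxb, Sparc, Sparcl1, Fn1, Mfge8 and Edil3 higher. Itga8- BLCs differed from Sca-1+ MSCs in 7 members (26.4% of all genes), of which Sparc, Npnt, Mfge8 and Edil3 were higher and Postn, Tnxb and Fn1 lower in Itga8- BLCs. Without Itga8- BLC replicate 1 that count was 4, as Fn1, Npnt and Mfge8 were no longer called. They differed from CD51+CD140a+ MSCs in 7 members (35.3% of all genes), of which Tnc was lower and Tnxb, Sparc, Sparcl1, Fn1, Mfge8 and Edil3 were higher. Sca-1+ MSCs differed from CD51+CD140a+ MSCs in 7 members as well (20.5% of all genes), with Tnc lower and Postn, Tnxb, Sparc, Sparcl1, Fn1 and Edil3 higher.

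The median log2 fold change of the 10 members was 0.71 between Itga8+ MSCs and Itga8- BLCs, where the median of all genes tested was 0.08. It was 1.27 for Itga8+ MSCs over Sca-1+ MSCs (all genes 0.16) and 4.18 for Itga8+ MSCs over CD51+CD140a+ MSCs (all genes 0.18). For Itga8- BLCs it was -0.90 over Sca-1+ MSCs (all genes 0.12) and 2.62 over CD51+CD140a+ MSCs (all genes 0.09), and for Sca-1+ MSCs over CD51+CD140a+ MSCs it was 2.64 (all genes -0.003). The 3 comparisons with CD51+CD140a+ MSCs share that population's libraries, as do the comparisons within each other population. The exact permutation test (two-sided), applied to 3 libraries a group, cannot go below p = 0.1, and it reached 0.1 wherever the libraries did not overlap.

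**Figure D1:**
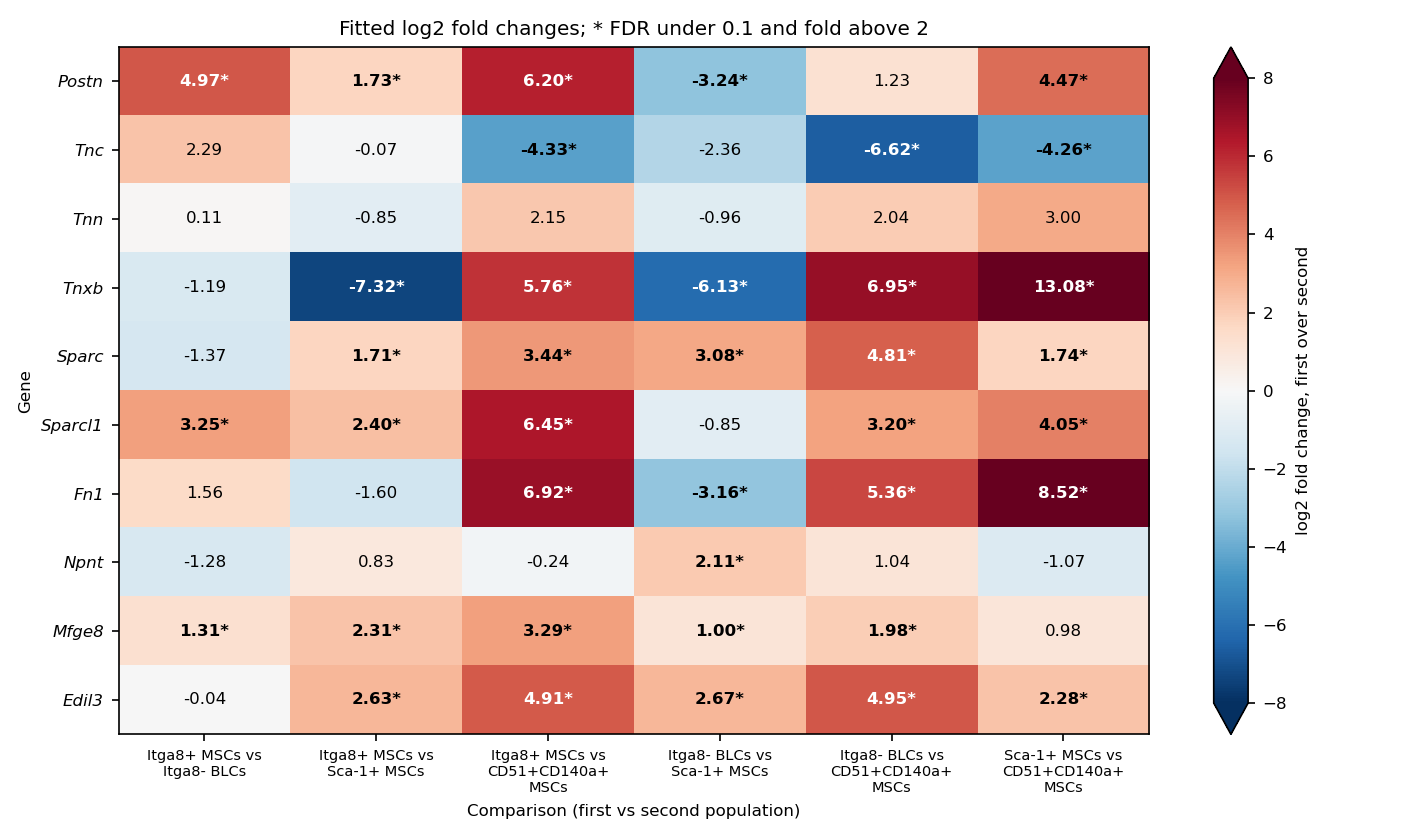
Fitted log2 fold changes (colour and number) of the 10 genes (rows) in the 6 comparisons (columns), first population over second, with * for FDR under 0.1 and fold above 2. Tnc is lower in all 3 populations compared with CD51+CD140a+ MSCs, at -4.33, -6.62 and -4.26, and the Tnxb values against CD51+CD140a+ MSCs depend on the prior count because Tnxb was at the floor there.

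Periostin (Postn, ENSMUSG00000027750, chr3:54361109-54391037, plus strand, GRCm38) is a matricellular protein of periosteum, tendon and ligament that binds αv integrins and collagen. Its fold between the Alcam+ populations was the largest of the 10 members. Itga8+ MSCs had 1251, 2630 and 5670 CPM, whereas Itga8- BLCs had 61.8, 155 and 87.8 CPM. Sca-1+ MSCs had 972, 1070 and 839 CPM and CD51+CD140a+ MSCs 68.2, 35.6 and 26.3 CPM. Every Itga8+ MSC library was above every library of the other populations, Sca-1+ MSCs came next, and Itga8- BLCs and CD51+CD140a+ MSCs overlapped. The mean in Itga8+ MSCs was 31.4-fold that in Itga8- BLCs (log2 fold change 4.97 ± 0.62 SE, edgeR FDR = 0.00131) and 73.4-fold that in CD51+CD140a+ MSCs (6.20 ± 0.657, FDR = 3.86e-05). The difference from Sca-1+ MSCs was smaller, at 3.31-fold (1.73 ± 0.539, edgeR FDR = 0.0498), and was no longer called without Itga8+ MSC replicate 3 (log2 fold change 0.96, FDR = 0.151) or without any 1 of the Sca-1+ MSC replicates (FDR = 0.121 to 0.149), nor with the replicate number as a block (FDR = 0.112). Without Itga8+ MSC replicate 3, the log2 fold change was 4.25 over Itga8- BLCs and 5.47 over CD51+CD140a+ MSCs. Sca-1+ MSCs exceeded CD51+CD140a+ MSCs 22.2-fold and Itga8- BLCs 9.47-fold (FDR = 0.000249 and 0.00223, edgeR), and Itga8- BLCs were 2.34-fold above CD51+CD140a+ MSCs without passing the test (FDR = 0.102), although DESeq2 (FDR = 0.0655), limma-trend (FDR = 0.0874) and several other settings called it. Tendon fibroblast markers had the same order for Itga8+ MSCs, since the sum of 6 of them (Scx, Tnmd, Mkx, Fmod, Thbs4 and Kera) was 12892 to 23544 CPM in Itga8+ MSCs, 6265 to 9349 in Sca-1+ MSCs, 3787 to 6394 in Itga8- BLCs and 83.4 to 113 in CD51+CD140a+ MSCs, where Scx and Kera were at or under the floor. All 6 were above the floor in every library of the other populations, and their part in the Postn difference was not tested.

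**Figure D2:**
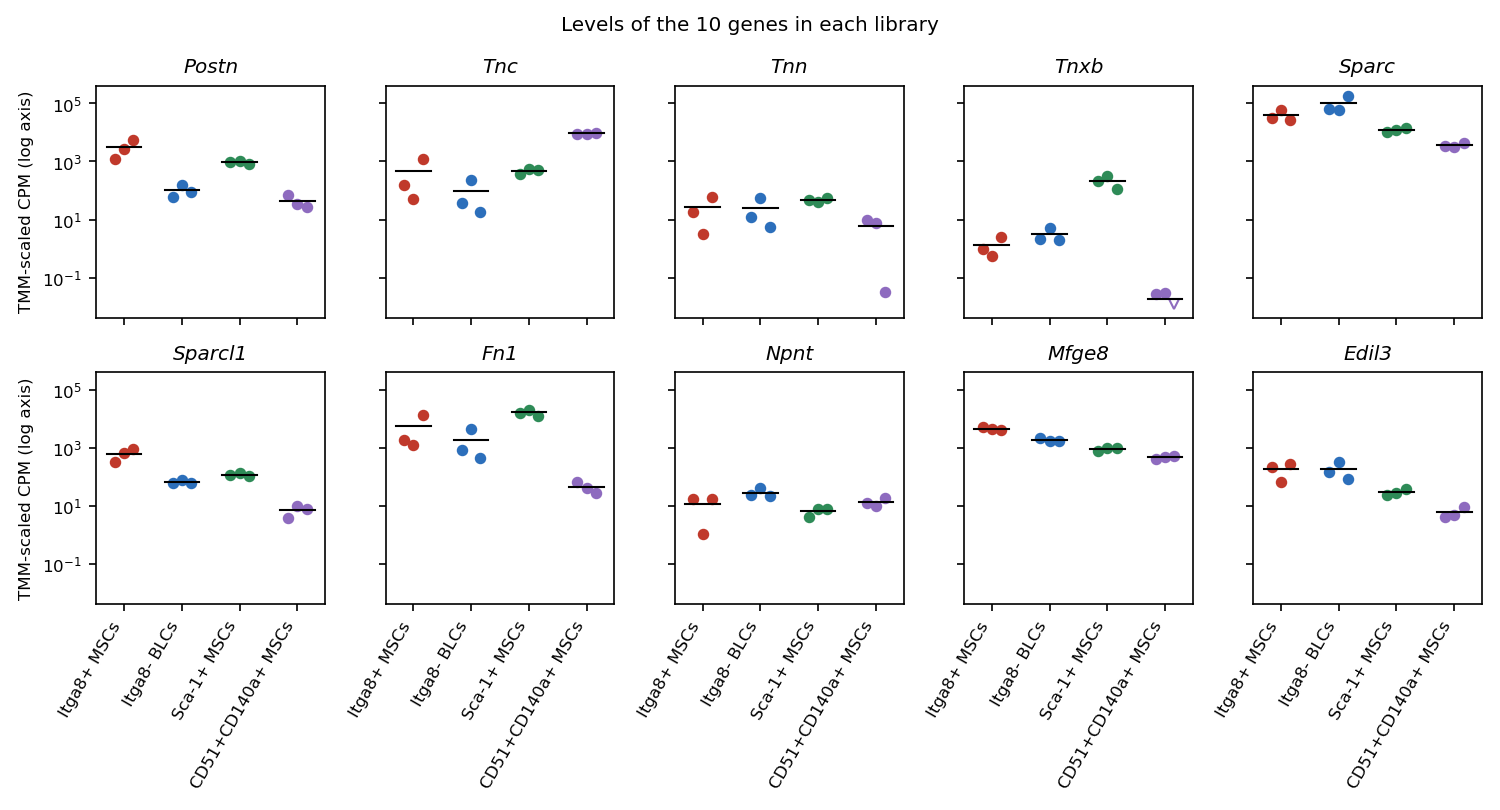
TMM-scaled CPM (log axis) of the 10 genes in the 12 libraries, with 1 point per library, ordered by replicate number within a population, and a line at the mean of 3. The open triangle marks a library with no Tnxb read, drawn at a fixed height below the measured values. Postn and Sparcl1 are highest in Itga8+ MSCs, Tnxb in Sca-1+ MSCs and Tnc in CD51+CD140a+ MSCs.

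Tenascins are large modular glycoproteins that modulate adhesion to fibronectin, and 3 of them are among the members. Tnc had its highest mean in CD51+CD140a+ MSCs, and Tnxb and Tnn had theirs in Sca-1+ MSCs. Tenascin-C (Tnc, ENSMUSG00000028364, chr4:63959785-64047015, minus strand), a tenascin of injured, developing and tendon tissue, reached 8977, 8821 and 9903 CPM in CD51+CD140a+ MSCs. Sca-1+ MSCs had 376, 560.0 and 508 CPM. The Alcam+ populations were uneven, with 154, 50.8 and 1173 CPM in Itga8+ MSCs and 36.2, 228 and 17.8 CPM in Itga8- BLCs. Itga8+ MSC replicate 3 was above every Sca-1+ MSC library. No library of another population came near those of CD51+CD140a+ MSCs, while Itga8+ MSCs overlapped both Itga8- BLCs and Sca-1+ MSCs. The mean in CD51+CD140a+ MSCs was 20.1-fold that of Itga8+ MSCs, 98.2-fold that of Itga8- BLCs and 19.2-fold that of Sca-1+ MSCs (edgeR FDR = 0.0141, 0.00223 and 0.0214). The log2 fold change was -6.48 in place of -4.33 for Itga8+ MSCs over CD51+CD140a+ MSCs without Itga8+ MSC replicate 3, and -8.42 in place of -6.62 for Itga8- BLCs without their replicate 2, the libraries with most Tnc. Itga8+ MSCs and Itga8- BLCs did not pass the test (log2 fold change 2.29 ± 1.04 SE, FDR = 0.407), and the value was 0.14 without Itga8+ MSC replicate 3 and 4.11 without Itga8- BLC replicate 2, neither of them called. Itga8+ MSCs and Sca-1+ MSCs did not pass either (-0.07 ± 0.993, FDR = 0.978), but the difference was called at -2.26 without Itga8+ MSC replicate 3 (FDR = 0.089). Its sign was the other without Itga8+ MSC replicate 1 (0.35) or 2 (0.45) or Sca-1+ MSC replicate 2 (0.054), none of them called. Itga8- BLCs lay below Sca-1+ MSCs in every library (-2.36 ± 1.04, FDR = 0.129), a difference that passed without Itga8- BLC replicate 2 (-4.19, FDR = 0.0217) or Itga8+ MSC replicate 2 or 3 (FDR = 0.0561 and 0.0447), in limma-trend (-3.17, FDR = 0.0378), with library totals alone, without the filter and in those populations alone (FDR = 0.062 to 0.0912). Exons of the opposite-strand gene 8030451A03Rik cover 2.27% of the exon bases of Tnc.

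Tenascin-X (Tnxb, ENSMUSG00000033327, chr17:34670535-34719815, plus strand), a tenascin of loose connective tissue whose loss weakens skin and joints, had another distribution. Sca-1+ MSCs had 218, 311 and 116 CPM. Itga8+ MSCs had 0.940, 0.571 and 2.54 CPM, Itga8- BLCs 2.14, 5.05 and 1.98 CPM, and the CD51+CD140a+ MSC libraries held 1, 1 and 0 counts. All Sca-1+ MSC libraries were thus far above all others. Their mean was 159-fold that of Itga8+ MSCs and 70.3-fold that of Itga8- BLCs (log2 fold change -7.32 ± 0.719 SE and -6.13 ± 0.676 for the Alcam+ population over Sca-1+ MSCs, edgeR FDR = 0.000113 and 0.000115), and it was at least 2438-fold higher than the level in CD51+CD140a+ MSCs, taking the floor of 3 counts per library there. Without Itga8+ MSC replicate 3 the first of these log2 fold changes was -8.17, and without Itga8- BLC replicate 2 the other was -6.74. Against the same floor, Itga8+ MSCs were at least 15.3-fold and Itga8- BLCs at least 34.7-fold higher than CD51+CD140a+ MSCs, bounds that were 8.57-fold without Itga8+ MSC replicate 3 and 23.4-fold without Itga8- BLC replicate 2. Every Alcam+ library had more Tnxb than every CD51+CD140a+ MSC library. Itga8+ MSCs and Itga8- BLCs overlapped and did not pass the test (FDR = 0.46). The Sca-1+ fibroblast markers Ly6a, Cd34, Pi16, Dpp4, Clec3b and Dpt summed to 2211 to 2744 CPM in Sca-1+ MSCs, at most 115 CPM in the Alcam+ populations and at most 19.5 CPM in CD51+CD140a+ MSCs, where Clec3b and Dpt were at or under the floor. Ly6a is the gene of the gate, and the part of the others in the Tnxb difference was not tested.

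Tenascin-W (Tnn, ENSMUSG00000026725, chr1:160085029-160153580, minus strand), known from periosteum and stem cell niches, was scarce and was called in 0 of the 6 comparisons by edgeR, with an unadjusted p under 0.05 in 1. It had 17.8, 3.06 and 57.5 CPM in Itga8+ MSCs and 12.3, 54.6 and 5.39 CPM in Itga8- BLCs. Sca-1+ MSCs were even, with 45.9, 39.8 and 55.2 CPM, and CD51+CD140a+ MSCs had 9.91 and 7.59 CPM and, in replicate 3, a single count. The first 3 populations overlapped, and Sca-1+ MSCs lay above every CD51+CD140a+ MSC library (8.03-fold, log2 fold change 3.00 ± 1.32 SE, edgeR FDR = 0.158). DESeq2 and limma-trend called that difference (FDR = 0.0519 and 0.059), as did edgeR on those populations alone (FDR = 0.041) and without Itga8+ MSC replicate 2 (FDR = 0.0876).

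SPARC (Sparc, ENSMUSG00000018593, chr11:55394500-55423183, minus strand), or osteonectin, binds collagen and calcium and is among the most abundant non-collagen proteins of bone. It was high in every population. Itga8- BLCs had 63053, 61470.5 and 184194 CPM and Itga8+ MSCs 32336, 60092 and 26968 CPM. Sca-1+ MSCs had 10558, 12127 and 13866 CPM and CD51+CD140a+ MSCs 3475, 3199.6 and 4296 CPM. The 4 populations did not overlap, but the order of the Alcam+ populations rested on libraries 61470.5 and 60092 that lay side by side, and their 2.59-fold difference did not pass the test (log2 fold change -1.37 ± 0.446 SE, edgeR FDR = 0.173). It passed in DESeq2 (FDR = 0.0676) and without Itga8+ MSC replicate 2 (-1.77, FDR = 0.0651), and without Itga8- BLC replicate 3 it was -0.66 and not called. Each following step was called, at 3.27-fold for Itga8+ MSCs over Sca-1+ MSCs (FDR = 0.0247) and 3.33-fold for Sca-1+ MSCs over CD51+CD140a+ MSCs (FDR = 0.0184). Itga8- BLCs were 8.45-fold above Sca-1+ MSCs and 28.1-fold above CD51+CD140a+ MSCs (FDR = 0.000945 and 3.94e-05), with log2 fold changes of 3.08 and 4.81 that were 2.35 and 4.09 without Itga8- BLC replicate 3.

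SPARC-like 1, or hevin (Sparcl1, ENSMUSG00000029309, chr5:104079111-104113733, minus strand), shares its collagen-binding domain with SPARC but not its distribution. Itga8+ MSCs had 325, 647 and 892 CPM and Sca-1+ MSCs 119, 131 and 104 CPM. Itga8- BLCs had 59.7, 77.2 and 59.2 CPM and CD51+CD140a+ MSCs 3.74, 9.83 and 7.76 CPM. No populations overlapped. The mean in Itga8+ MSCs was 9.51-fold that of Itga8- BLCs (log2 fold change 3.25 ± 0.432 SE, edgeR FDR = 0.0018), 5.26-fold that of Sca-1+ MSCs (2.40 ± 0.417, FDR = 0.00271) and 87.4-fold that of CD51+CD140a+ MSCs (6.45 ± 0.503, FDR = 4.3e-06). Its order was that of Postn, and these genes correlated at r = 0.91 over the 12 libraries (Pearson, log2(CPM + 4)), a description in which libraries of 1 population stand together. The step from Sca-1+ MSCs to Itga8- BLCs, 1.81-fold, did not pass (FDR = 0.148). It was called with library totals alone (log2 fold change -1.075, edgeR FDR = 0.0567). Limma-trend with the trend of transcript length removed, described below, also called it (-1.004, FDR = 0.0778).

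Fibronectin (Fn1, ENSMUSG00000026193, chr1:71585520-71653200, minus strand) is the ligand of integrin α5β1 and a scaffold to which tenascins and periostin bind. Sca-1+ MSCs had 16458, 20724 and 12738 CPM. Itga8+ MSCs had 1840.2, 1238 and 13410.4 CPM, Itga8- BLCs 826, 4329 and 437 CPM, and CD51+CD140a+ MSCs 68.0, 40.5 and 27.7 CPM. Sca-1+ MSCs were highest except that Itga8+ MSC replicate 3 exceeded the lowest of them, and CD51+CD140a+ MSCs were below all others. The mean of Sca-1+ MSCs was 367-fold that of CD51+CD140a+ MSCs (log2 fold change 8.52 ± 1.25 SE, edgeR FDR = 0.000461), and the means of Itga8+ MSCs and Itga8- BLCs were 121-fold and 41.1-fold above it (FDR = 0.00103 and 0.0032). The first of these log2 fold changes, 6.92, was 5.09 without Itga8+ MSC replicate 3, and the other, 5.36, was 3.80 without Itga8- BLC replicate 2. Itga8- BLCs were 8.93-fold below Sca-1+ MSCs (-3.16 ± 0.98, FDR = 0.0394), and this was no longer called without Itga8- BLC replicate 1 or 3 (FDR = 0.125 and 0.109), while it was -4.76 without replicate 2. Itga8+ MSCs did not differ by the test from Itga8- BLCs (1.56 ± 0.924, FDR = 0.585) or from Sca-1+ MSCs (-1.60 ± 0.925, FDR = 0.245). The latter was called by limma-trend (-2.38, FDR = 0.0802) and, at -3.47 (FDR = 0.0183), without Itga8+ MSC replicate 3. The former ranged from -0.27, without Itga8+ MSC replicate 3, to 3.14 when 1 library was left out, without a call. Exons of Apol7d, on the opposite strand, cover 2.50% of the exon bases of Fn1.

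Nephronectin (Npnt, ENSMUSG00000040998, chr3:132881745-132950291, minus strand), the ligand named for integrin α8β1 in kidney development, had the smallest ratio of highest to lowest population mean of the 10 members, 4.32. Itga8- BLCs had 23.7, 40.4 and 21.3 CPM and CD51+CD140a+ MSCs 12.2, 10.2 and 19.1 CPM. Itga8+ MSCs had 16.9, 1.09 and 17.2 CPM and Sca-1+ MSCs 4.26, 7.93 and 7.59 CPM. Itga8- BLCs were above every library of the other 3 populations, and Itga8+ MSCs overlapped both remaining ones. The sole call was Itga8- BLCs over Sca-1+ MSCs, at 4.32-fold (log2 fold change 2.11 ± 0.73 SE, edgeR FDR = 0.0591), and it was lost without Itga8- BLC replicate 1 or 2 (FDR = 0.106 and 0.134) and without any 1 of the Sca-1+ MSC replicates (FDR = 0.125 to 0.173). The difference between Itga8+ MSCs and Itga8- BLCs was -1.28 ± 0.711 (FDR = 0.542), with the lower mean in the cells sorted for integrin α8. Without Itga8+ MSC replicate 2, the library with 1.09 CPM, Itga8+ MSCs exceeded Sca-1+ MSCs (log2 fold change 1.35, FDR = 0.0406), and CD51+CD140a+ MSCs were called below Itga8- BLCs (1.04, FDR = 0.0364) and above Sca-1+ MSCs (-1.03 for Sca-1+ MSCs over them, FDR = 0.0622). The differences of CD51+CD140a+ MSCs were also called by edgeR when only the populations compared were fitted (1.03, FDR = 0.0695, and -1.07, FDR = 0.0315).

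Milk fat globule-EGF factor 8 (Mfge8, ENSMUSG00000030605, chr7:79133768-79149060, minus strand) bridges phosphatidylserine on dying cells to αv integrins on phagocytes. Its libraries were even, the highest being 1.20 to 1.27 times the lowest within each population. Itga8+ MSCs had 5054, 4365 and 4207 CPM and Itga8- BLCs 2128, 1683 and 1703 CPM. Sca-1+ MSCs had 789.8, 1007 and 953 CPM and CD51+CD140a+ MSCs 400.5, 489 and 507 CPM. The 4 populations formed separate steps of similar size with no overlap. Itga8+ MSCs exceeded Itga8- BLCs 2.47-fold (log2 fold change 1.31 ± 0.237 SE, edgeR FDR = 0.011), Sca-1+ MSCs 4.96-fold (2.31 ± 0.244, FDR = 0.000152) and CD51+CD140a+ MSCs 9.75-fold (3.29 ± 0.255, FDR = 4.21e-06). The first was not called when those populations were fitted alone (FDR = 0.197). The steps from Itga8- BLCs to Sca-1+ MSCs (1.00 ± 0.235, FDR = 0.0109) and from there to CD51+CD140a+ MSCs (0.98 ± 0.235, FDR = 0.0122) stood at the fold threshold, on either side of it. The former was not called without Itga8+ MSC replicate 2 or 3, Itga8- BLC replicate 1 or Sca-1+ MSC replicate 1 (log2 fold change 0.84 to 0.97), nor in DESeq2, with other size factors or library totals, without the filter, in those populations alone or with thinned counts (0.81 to 0.996), and the latter was called, at 1.01 to 1.07, without Itga8+ MSC replicate 2 or 3, Itga8- BLC replicate 1 or 2, Sca-1+ MSC replicate 1 or CD51+CD140a+ MSC replicate 2 or 3.

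EGF-like repeats and discoidin domains 3 (Edil3, also Del-1, ENSMUSG00000034488, chr13:88821472-89323223, plus strand) has the domain plan of Mfge8 and likewise carries an integrin-binding motif. Itga8- BLCs had 152, 335 and 86.5 CPM and Itga8+ MSCs 211, 68.8 and 278 CPM. Sca-1+ MSCs had 24.4, 27.3 and 38.3 CPM and CD51+CD140a+ MSCs 4.21, 4.99 and 9.40 CPM. The Alcam+ populations overlapped throughout (log2 fold change -0.04 ± 0.555 SE, edgeR FDR = 1.0), whereas every library of both was above every Sca-1+ MSC library. Itga8+ MSCs were 6.20-fold and Itga8- BLCs 6.37-fold above Sca-1+ MSCs (FDR = 0.0113 and 0.00824), and 30.01-fold and 30.8-fold above CD51+CD140a+ MSCs (FDR = 0.000198 and 0.000185). For Itga8- BLCs, the log2 fold changes of 2.67 and 4.95 were 1.95 and 4.26 without replicate 2. Sca-1+ MSCs were 4.84-fold above CD51+CD140a+ MSCs (FDR = 0.0177). The cartilage marker sum was 9917 to 116106 CPM in the Alcam+ libraries and 524 to 1586 CPM elsewhere, in the same order as Edil3 within each Alcam+ population, and its part in the Edil3 differences was not tested.

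Levels of different genes were compared per length, as transcripts-per-million values (TPM) from the union of exons of each gene. Sparc made up 96.9% ± 2.04 (SD, n = 3) of the summed TPM of the 10 members in Itga8- BLCs, 81.6% ± 11.3 of that in Itga8+ MSCs and 63.3% ± 6.50 of that in Sca-1+ MSCs. In CD51+CD140a+ MSCs, Tnc took the larger share, 52.5% ± 1.91, and Sparc 42.4% ± 2.31. That order depended on the length used, since with the longest coding transcript the shares were 41.6% ± 1.77 for Tnc and 50.5% ± 2.44 for Sparc. Fn1 was the next member in Sca-1+ MSCs, at 28.1% ± 6.12, against 4.44% ± 5.82 in Itga8+ MSCs. By mean share, Mfge8 was the next in Itga8+ MSCs, at 8.24% ± 2.71, and Postn took 3.16% ± 2.74 there. In Itga8+ MSC replicate 3, however, Fn1 (13410.4 CPM, 11685 exon bases) was above Mfge8 (4207 CPM, 4694 exon bases) per base. Summed over the members, the CPM was 107115 ± 68855 in Itga8- BLCs, 54326 ± 14018 in Itga8+ MSCs, 13478 ± 1159 in CD51+CD140a+ MSCs and 31599 ± 3820 in Sca-1+ MSCs. The sums in Itga8- BLCs were 66355, 68377 and 186614 CPM, so that replicate 3 set their mean. Without Sparc, Itga8- BLCs had the lowest sum, 4209 ± 2377 CPM, CD51+CD140a+ MSCs had 9821 ± 592 CPM and Sca-1+ MSCs had 19415 ± 4274 CPM. Itga8+ MSCs had 8871, 9004 and 25707 CPM, and their replicate 3 exceeded every Sca-1+ MSC library.

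**Figure D3:**
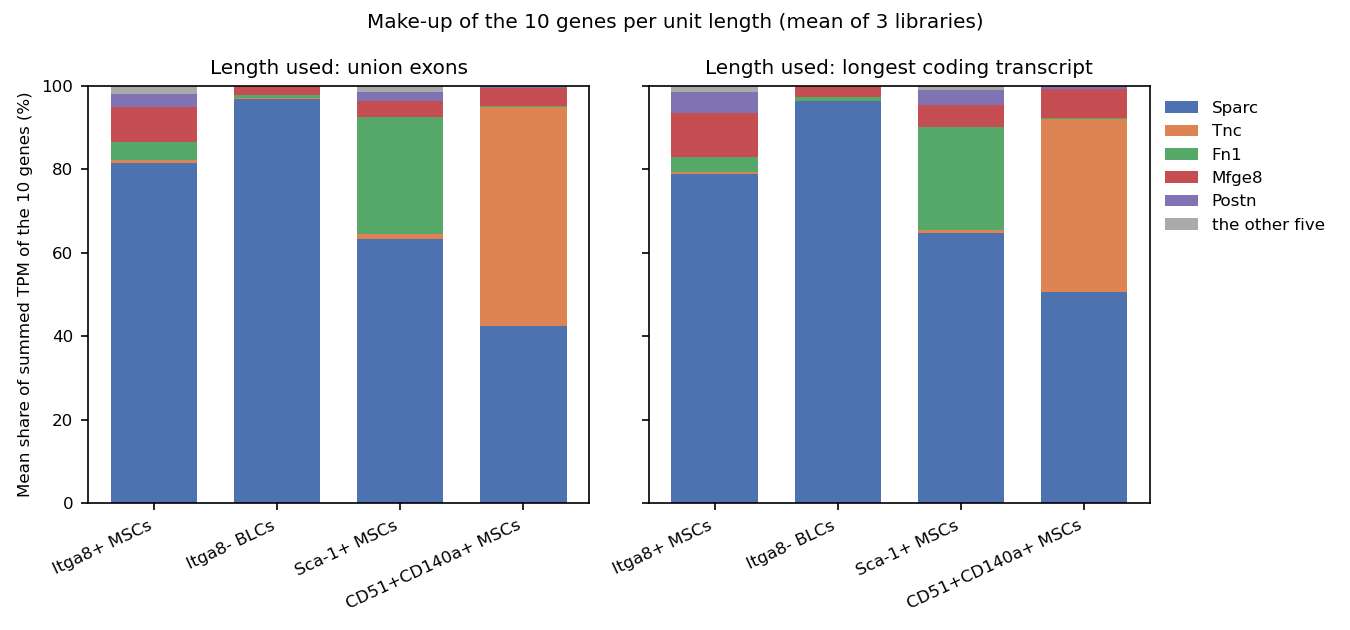
Mean share (%) of each gene in the summed TPM of the 10 members, as stacked bars for the 4 populations (3 libraries each), with length taken from the union of exons (left) or the longest coding transcript (right). In CD51+CD140a+ MSCs, Sparc holds 42.4% (left) or 50.5% (right) of the bar and Tnc 52.5% or 41.6%, and Sparc holds the largest part of the bar in the other populations.

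Within the Alcam+ populations, the spread of several members moved with the balance of long and short transcripts in the library. The difference between the median deviation of 1937 genes with transcripts of 5000 bases or more and that of 1108 genes under 1500 bases, on the log2(CPM + 4) scale relative to the population mean, was 0.311, -1.588 and 1.229 in Itga8+ MSC replicates 1 to 3 and -0.091, 1.184 and -1.048 in those of Itga8- BLCs. It stayed within -0.286 and 0.180 in the other libraries. Tnc, Tnn, Tnxb, Fn1, Npnt and Edil3 were highest in Itga8+ MSC replicate 3 and Itga8- BLC replicate 2, the libraries with relatively most long transcripts, and lowest in Itga8+ MSC replicate 2 and Itga8- BLC replicate 3. The deviations of Tnc in those libraries were 2.44, 1.98, -1.98 and -1.43, and those of Fn1 were 2.1, 1.89, -1.33 and -1.40. Sparc ran the other way, with 0.68 and 1.04 in the libraries with fewest long transcripts, and Mfge8 stayed within -0.12 and 0.22 in all 6 libraries. Postn and Sparcl1 were highest in Itga8+ MSC replicate 3 (1.094 and 0.636) and Itga8- BLC replicate 2 (0.686 and 0.237). In Itga8+ MSCs, both were lowest in replicate 1. The part of each member's own transcript length was not tested. The cartilage marker sums given above had the same order as the length measure in both Alcam+ populations, and the myeloid and lymphoid sum of Itga8+ MSCs had the reverse order. After the trend with transcript length was removed from each library (limma-trend, an alternative chosen after seeing the data), the members called were 3, 7, 9, 8, 9 and 8 in the 6 comparisons in the order given above (7.69%, 25.6%, 34.9%, 31.4%, 36.7% and 24.6% of the 15003 genes tested). With the trend left in, limma-trend called 3, 7, 8, 8, 8 and 8 members (4.99%, 24.7%, 36.2%, 30.1%, 37.5% and 21.6% of 18648 genes). Postn, Sparcl1 and Mfge8 were again the members called between Itga8+ MSCs and Itga8- BLCs. The part of RNA quality or of other cells in these deviations was not tested.

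**Figure D4:**
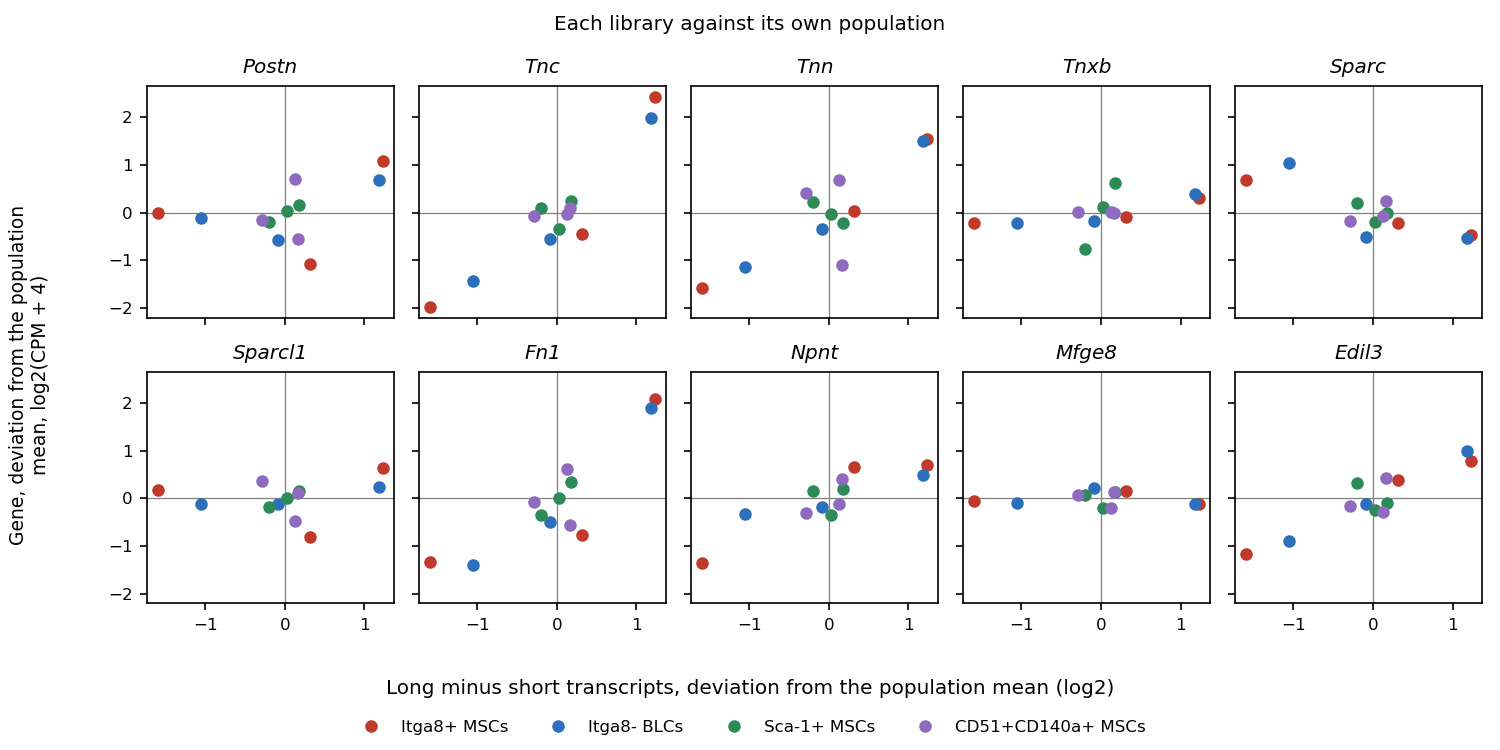
Deviation of each gene from its population mean, log2(CPM + 4), against the deviation of long relative to short transcripts in the same library (log2), with 1 point per library, coloured by population. Tnc, Tnn and Fn1 run from lower left to upper right through the Itga8+ MSC and Itga8- BLC libraries, Sparc runs downward, and Mfge8 is flat.

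The receptors for these ligands were read from 10 integrin subunits known to bind members, Itgav, Itgb1, Itgb3, Itgb5, Itgb6, Itgb8, Itga4, Itga5, Itga8 and Itga9. Between Itga8+ MSCs and Itga8- BLCs, Itga8, the gene of the gate, was the sole subunit called (log2 fold change 5.86 ± 0.909 SE, edgeR FDR = 0.0042), and the median of the list was 0.06 (3.82% of all genes called). The summed CPM of the subunits followed the length measure within the Alcam+ populations, at 1174, 532 and 2076 in Itga8+ MSCs and 938, 1412 and 684 in Itga8- BLCs, and the part of RNA quality in the differences below was not tested. Against Sca-1+ MSCs, 1 subunit was higher and 3 were lower in Itga8+ MSCs (median -1.40; 21.7% of all genes called). Itgb5, whose αvβ5 receptor binds Mfge8, averaged 709.9 ± 56.7 CPM (SD, n = 3) in Sca-1+ MSCs and 264 ± 135 CPM in Itga8+ MSCs (FDR = 0.0276). Itga9, a receptor chain for tenascin-C, was 137 ± 14.8 CPM in CD51+CD140a+ MSCs, followed by 73.8 ± 2.31 in Sca-1+ MSCs, 11.7 ± 11.4 in Itga8+ MSCs and 1.71 ± 2.33 in Itga8- BLCs. It was lower in Itga8+ MSCs than in both Sca-1+ MSCs (-2.66 ± 0.928, FDR = 0.0726) and CD51+CD140a+ MSCs (-3.55 ± 0.963, FDR = 0.0164), where Itgb8 was the other call, in the opposite direction (35.6% of all genes called). Itga8- BLCs had 3 subunits called against Sca-1+ MSCs, all lower (26.4% of all genes called), and 1 higher and 2 lower than CD51+CD140a+ MSCs (35.3%). Sca-1+ MSCs had 5 higher and 1, Itga8, lower than CD51+CD140a+ MSCs (20.5%), and Itga5, the fibronectin receptor chain, was 646 ± 67.8 against 84.8 ± 8.38 CPM (2.93 ± 0.835, FDR = 0.0302). Itgb1, the partner of α4, α5, α8 and α9, averaged 605 to 1148 CPM, and its folds of 1.02 to 1.896 were under the fold threshold in every comparison.

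Another 29 matricellular proteins and integrin ligands, from thrombospondins and CCN proteins to the acidic bone matrix proteins, were counted from a fixed list. Between Itga8+ MSCs and Itga8- BLCs, 5 were higher, 4 lower and 20 not called (median log2 fold change 0.14; 3.82% of all genes were called). Thbs4, a tendon thrombospondin, averaged 4699 ± 3510.5 CPM (SD, n = 3; 2847, 2503 and 8748 CPM) in Itga8+ MSCs and 356 ± 156 in Itga8- BLCs (3.72 ± 0.657 SE, edgeR FDR = 0.00949). Ibsp, bone sialoprotein, went the other way, at 233 ± 77.8 against 3461 ± 1079 CPM (-3.89 ± 0.441, FDR = 0.000715), and Fstl1, a secreted relative of SPARC, was higher in Itga8+ MSCs (1.74 ± 0.339, FDR = 0.0171). Against Sca-1+ MSCs, 9 were higher and 5 lower in Itga8+ MSCs (21.7% of all genes called). Of the CCN proteins, Ccn1 (1.77 ± 0.309, FDR = 0.00284), Ccn2 (1.61 ± 0.39, FDR = 0.0168) and Ccn4 (2.64 ± 0.434, FDR = 0.00198) were higher, and Ccn3 (-3.87 ± 0.99, FDR = 0.0214) and Ccn5 (-2.02 ± 0.386, FDR = 0.00477) were lower, as was Fstl1 (-2.0 ± 0.342, FDR = 0.00244). Against CD51+CD140a+ MSCs, 14 were higher and 8 lower (35.6% of all genes called), with Comp, a tendon and cartilage thrombospondin, at 7566 ± 2534 against 74.0 ± 63.1 CPM (6.68 ± 0.615, FDR = 1.48e-05). For Itga8- BLCs, 10 were higher and 10 lower than in Sca-1+ MSCs (26.4% of all genes called), and 15 higher and 5 lower than in CD51+CD140a+ MSCs (35.3%). Sca-1+ MSCs had 11 higher and 7 lower than CD51+CD140a+ MSCs (20.5%). Spock3 and Tnr had no read in the CD51+CD140a+ MSC libraries.

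Genes for the collagens and enzymes with which periostin, SPARC and tenascin-X are associated were counted as a list of 9 (Col1a1, Col1a2, Col3a1, Col5a1, Col5a2, Col12a1, Bmp1, Lox and Loxl2). Itga8+ MSCs had 1 higher, Col12a1, and 5 lower than Itga8- BLCs (median log2 fold change -2.35; 3.82% of all genes called), among them Col1a2, at 6302 ± 6124 against 100284 ± 84456 CPM (SD, n = 3; -3.99 ± 0.765 SE, edgeR FDR = 0.0153), Col1a1 (-3.90 ± 0.971, FDR = 0.0592) and Col5a2 (-2.35 ± 0.651, FDR = 0.0949). The summed CPM of the list followed the length measure and the cartilage markers within these populations, at 12176, 2721 and 28101 in Itga8+ MSCs and 132668, 314836 and 70489 in Itga8- BLCs, and their part in the difference was not tested. Against Sca-1+ MSCs, 5 were called (21.7% of all genes) and all were lower, led in level by Col3a1 (-4.40 ± 0.972, edgeR FDR = 0.0104). Postn and Sparcl1 were highest in a population whose collagen I messages were below those of Itga8- BLCs, whereas Sparc had its highest mean in the population where Col1a1 and Col1a2 also had theirs, although Itga8- BLC replicate 3, the library with most Sparc, had the lowest collagen sum of the 3. Against CD51+CD140a+ MSCs, Itga8+ MSCs had 3 higher and 1, Lox, lower (35.6% of all genes called), and the 5 genes called for Itga8- BLCs (35.3%) and the 6 called for Sca-1+ MSCs (20.5%) were all higher. Between Itga8- BLCs and Sca-1+ MSCs (26.4% of all genes called), Col1a2 was higher (2.76 ± 0.724, edgeR FDR = 0.0189) and Col3a1 lower (-6.17 ± 1.06, FDR = 0.00187).

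The genes most like each member over the 12 libraries were ranked by Pearson r of log2(CPM + 4) among 9148 genes with a mean of at least 10 CPM. This is a description, since libraries of 1 population share their values. Postn was nearest to Asphd2 (r = 0.968), Arhgap22 (0.965) and Itgbl1 (0.957), and Sparcl1 had Rflnb (0.977) and the tendon transcription factor Scx (0.974) among its 3 nearest genes. Tnc was nearest to Pknox2 and Adgrl2 (both 0.981) and Plekhg2 (0.980), and Tnxb to Gldn (0.996), Col4a5 (0.994) and Duox1 (0.993). Sparc was nearest to Atp1b3 (0.993), Cthrc1 (0.992) and Cryzl2 (0.990), and Edil3 to Susd5 (0.987), the cartilage proteoglycan Acan (0.985) and Vps37b (0.980). Fn1 was nearest to Cilp2 (0.982), Tspan2 (0.979) and Apol7d (0.978), and the last of these is the gene that overlaps Fn1 on the other strand, whose reads cannot be told from those of Fn1 where strand was not used. Tnn followed Ttc13 (0.958) and Met (0.957), Npnt followed Ell (0.95), Efs (0.948) and Arfgap1 (0.948), and Mfge8 followed Ddah1 (0.983), Cdkn2c (0.972) and Slc35f2 (0.970). Among the members themselves, r was highest for Postn with Sparcl1 (0.91) and lowest for Tnc with Sparc (-0.93).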

How the data were processed

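Per the labels and the methods of the study, 2000 sorted cells per library were amplified with a SMART-Seq v4 kit, tagmented with Nextera XT and sequenced on an Illumina NextSeq instrument. The values used are the read counts per Ensembl gene that the authors deposited, 1 file per library, with no normalization. The submitters' processing notes name FastQC 0.11.7, Trimmomatic 0.38, HISAT2 2.1.0, SAMtools 1.9, featureCounts 1.6.3 and the mm10 build, while the methods describe TopHat and Bowtie 2. Which of them made the files, the strand setting, the treatment of multimapping reads and the annotation release are not given in the sources used here.

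Symbols, positions and lengths were taken from GENCODE M21 (GRCm38), in which 49326 of the 49585 identifiers were found. Counts were fitted with edgeR 4.0.16 in R 4.3.3 (TMM, quasi-likelihood, all 12 libraries in 1 fit, keeping genes that reached 0.5 CPM in any library). The SE given with a log2 fold change is its absolute value divided by the square root of the quasi-likelihood F, and is not a fitted standard error. Genes were called at the thresholds that the study used, FDR under 0.1 and fold above 2. The floor of 3 counts covers counting error only. The script was tested on simulated counts with known changes. Alternatives were DESeq2 1.42.0, limma-trend 3.58.1 (prior count 2), other scalings, filters and thresholds, thinned counts, a replicate block and leaving out each library. The members and lists were chosen with earlier results of these data known. Named genes were the members, the sorting genes, of each list the 3 called genes of highest mean CPM per comparison with others where a count was small, and the 3 genes most like each member. Of these nearest genes, 1 each for Sparcl1 and Tnn is not reported here.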

Additional observations from a re-analysis of the deposited data

How the results depend on the processing

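Of 1374 values of 60 member comparisons under 23 alternatives, 1287 kept their direction and their side of the thresholds, 47 gained a call, 25 lost one and 15 changed sign. None of the 15 was called in either fit. For Itga8+ MSCs over Itga8- BLCs, leaving out 1 library gave log2 fold changes of -1.20 to 1.57 for Tnn, -0.27 to 3.14 for Fn1 and -0.44 to 0.66 for Edil3. Tnn was also at -0.068 in limma-trend and -0.019 there with the length trend removed, and Edil3 at 0.26 with library totals alone and 0.0038 in limma-trend with the length trend removed. Leaving out 1 library gave -2.26 to 0.45 for Tnc over Sca-1+ MSCs and -0.603 to 0.32 for Npnt over CD51+CD140a+ MSCs, both in Itga8+ MSCs.

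The members called, in the 6 comparisons in the order of the report, numbered 3 to 4, 5 to 7, 8, 4 to 7, 7 to 9 and 7 to 10 when each library was left out, and 2 to 4, 5 to 7, 7 to 9, 6 to 8, 7 to 9 and 7 to 9 under the other settings. DESeq2 gave no p for Tnc in any comparison. The replicate block left the counts at 3, 5, 8, 7, 7 and 7, losing Postn between Itga8+ MSCs and Sca-1+ MSCs (FDR = 0.112). Deviations of libraries with the same number correlated at -0.783 to 0.399. With 3 libraries a population, these values cannot show whether libraries of the same number were paired, and the labels do not say. All genes called between Itga8+ MSCs and Itga8- BLCs numbered 712, but 433 with the block, 276 when those populations were fitted alone, 464 at FDR under 0.05, 1203 in DESeq2, 433 without Itga8- BLC replicate 3, 931 in limma-trend and 1154 in limma-trend with the length trend removed (15003 genes tested). For Itga8+ MSCs over Sca-1+ MSCs, 4055 fell to between 2386 and 2642 without 1 of the Sca-1+ MSC libraries. With library totals alone in place of TMM, the median change over the genes tested shifted by -0.328 to 0.257 on the log2 scale, and the share of calls that were higher in Itga8+ MSCs than in Itga8- BLCs went from 43.5% to 61.3%, while the share higher in Itga8- BLCs went from 54.9% to 42.6% against Sca-1+ MSCs and from 57.9% to 41.8% against CD51+CD140a+ MSCs. Tnxb was at the floor of 3 counts in CD51+CD140a+ MSCs, although their libraries had the largest totals (29652779 to 31332475 counts). Depth there limited only how large a fold could be given.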
